A study of Papio anubis with 25 samples.

Results

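The parotid and the submandibular gland of the olive baboon (Papio anubis) were compared in the libraries that carried a strong salivary signal. A library entered when BPIFA2, a secreted salivary protein of the BPI fold family, reached at least 2000 TPM, the length-scaled transcript share that kallisto reports. That rule kept 3 of 5 parotid libraries (baboons 1, 3 and 4) and 4 of 5 submandibular libraries (baboons 1, 3, 4 and 5), 7 of the 25 libraries in all. The series measured RNA from frozen parotid, submandibular, sublingual, pancreas and liver tissue of 5 baboons, with 1 library per tissue and animal, to follow amylase expression between salivary glands and digestive organs. The glands came from the left side. All animals but baboon 5 were female, so 1 submandibular library is the only male library here. The labels name no strain, age or treatment. Baboons 1, 3 and 4 had both glands, which gave 3 within-animal comparisons.

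Saliva is made by acinar cells that secrete protein and fluid and by ducts that modify it. The parotid is known as a serous gland, rich in amylase and proline-rich proteins, whereas the submandibular gland mixes serous and mucous acini and supplies mucins, cystatins and a steady resting flow. Both glands house plasma cells whose immunoglobulin A is carried into saliva across the epithelium by the polymeric immunoglobulin receptor.

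The values that chose the libraries are a description and carry no test. BPIFA2 stood at 19382, 5051 and 15809.6 TPM in the parotid libraries of baboons 1, 3 and 4, and at 46591, 35896, 36518 and 28937 TPM in the submandibular libraries of baboons 1, 3, 4 and 5. The lowest library above the threshold was the parotid of baboon 3. Below it lay the parotid of baboon 5 at 1108 TPM, the submandibular gland of baboon 2 at 1044 TPM and the parotid of baboon 2 at 507 TPM. The highest liver and pancreas libraries held 1414 and 1229.7 TPM, so the 3 gland libraries outside the rule did not exceed those tissues.

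A separate acinar marker, the water channel AQP5, did not take part in the choice. It measured 107, 48.3 and 53.9 TPM in the 3 parotid libraries and 88.3, 70.8, 54.7 and 61.8 TPM in the 4 submandibular libraries, against at most 5.40 TPM in the 3 gland libraries outside the rule and at most 4.52 TPM in pancreas or liver. The 2 glands overlapped for AQP5, and the log2 difference was -0.08 (SE 0.38). The other markers fixed for gland content, MUC7 and ST6GALNAC1, did not exceed the highest pancreas or liver library in any of the 3 parotid libraries, and did so in all 4 submandibular libraries. The 5 sublingual libraries spanned 133 to 44549.7 TPM of MUC7 (median 1014) and 0.840 to 48.2 TPM of ST6GALNAC1 (median 6.43), so neither gene is particular to the submandibular gland.

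Libraries differed in what else they held. The 13 mitochondrially encoded genes took 1.60% to 14.8% of the parotid libraries and 2.23% to 8.70% of the submandibular libraries, highest in the parotid of baboon 3 and in the submandibular gland of baboon 5. The submandibular library of baboon 5 stood apart: its 8 adipocyte markers summed to 7686 TPM, against 19.5 to 134 TPM in the other 6 libraries. TPM sum to the same total in every library, so the read depth behind each value is unknown. Across genes, log2(TPM + 1) correlated at 0.941 to 0.952 between the glands of the same animal, at 0.832 to 0.936 between the glands of different animals, at 0.908 to 0.940 within parotid and at 0.856 to 0.966 within submandibular gland, a description over genes that are not independent replicates.

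A handful of secretory loci took most of the RNA in both glands, and the glands differed in which loci led. In TPM, 7 loci together made up 81.7%, 56.3% and 86.5% of the parotid libraries and 79.7%, 71.1%, 81.2% and 52.1% of the submandibular libraries. The lowest share of each gland was in baboon 3 for the parotid and in baboon 5 for the submandibular gland. Where a locus has no symbol in the gene table, it is placed by the nearest named genes of the RefSeq annotation of the assembly Panubis1.0.

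**Figure D1:**
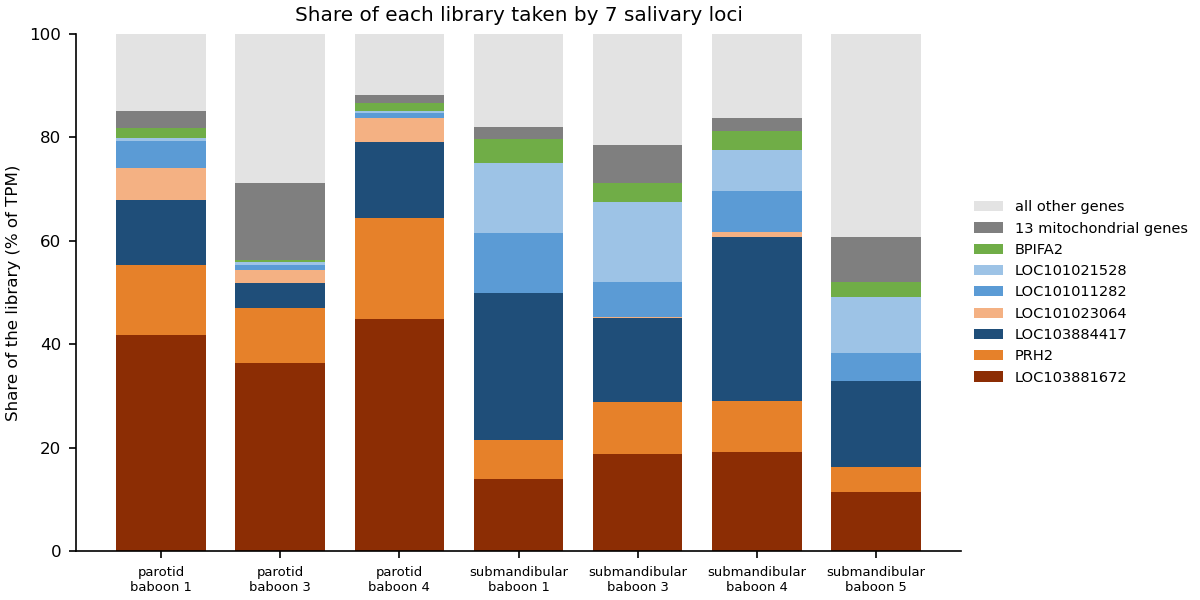
Stacked bars give the share of each of the 7 libraries (percent of TPM) taken by 7 salivary loci, the 13 mitochondrially encoded genes and all other genes. LOC103881672 fills 36.4% to 44.9% of the parotid bars and 11.5% to 19.2% of the submandibular bars, while LOC101021528 fills 7.85% to 15.5% of the submandibular bars and at most 0.523% of the parotid bars.

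The leading transcript of every parotid library came from LOC103881672, which lies between the bitter taste receptor gene TAS2R42 and ETV6. It stood at 416757, 363990.0 and 448743 TPM in the parotid libraries and at 140350.0, 186557, 192071 and 115097 TPM in the submandibular libraries. The glands did not overlap, and the log2 difference was 1.32 (SE 0.21, limma adjusted p = 6.51e-04). PRH2, an acidic proline-rich protein that binds calcium and tooth mineral, measured 136723, 105547 and 193793 TPM in parotid and 74459, 101730.0, 97565 and 47134 TPM in submandibular gland. Its libraries did not overlap either, but its log2 difference of 0.75 (SE 0.25, limma adjusted p = 0.334) did not pass the test. Reads of proline-rich protein genes can be shared among near-identical copies, so the split between such loci is uncertain.

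In the submandibular gland the most abundant transcript in 3 of 4 libraries was LOC103884417, which lies between the casein gene CSN2 and the histatin gene HTN1. It reached 283861, 162391, 317371 and 167128 TPM in submandibular gland against 123840.0, 48707 and 146610.0 TPM in parotid, a log2 difference of -1.29 (SE 0.25, limma adjusted p = 0.00492). LOC101011282, in the same gene neighbourhood between CABS1 and OPRPN, measured 115883, 67923, 80059 and 53957 TPM in submandibular gland and 52159.5, 9999 and 9800.3 TPM in parotid. The parotid of baboon 1 came close to the lowest submandibular library, and the log2 difference was -2.24 (SE 0.33, limma adjusted p = 2.57e-04). LOC103881672, LOC103884417 and LOC101011282 lost their calls under TMM scaling, with adjusted p of 0.418, 0.636 and 0.237, while their log2 differences there were 1.32, -1.28 and -2.23. With animal as a fixed block over the 3 pairs, LOC103881672 (1.25, limma adjusted p = 0.2504) and LOC103884417 (-1.35, limma adjusted p = 0.111) were not called either.

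Of the abundant loci, LOC101021528 separated the glands most sharply toward the submandibular side. It lies between CST9, of the cystatin family of cysteine protease inhibitors, and SYNDIG1. The submandibular libraries held 135043, 155289, 78489 and 108186 TPM and the parotid libraries 5229, 4309 and 2956 TPM, with no overlap and a 28.6-fold ratio of means. The log2 difference was -4.85 (SE 0.27, limma adjusted p = 4.43e-12), and the 3 animals gave -4.69, -5.17 and -4.73. In the parotid libraries outside the rule the locus took 0.147% (baboon 2) and 0.321% (baboon 5) of TPM. The chosen parotid libraries held 0.296% to 0.523%, so that of baboon 4 lay below the parotid of baboon 5.

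Across all genes, 10978 had a mean of at least 1 TPM in 1 of the glands and were tested. Calling a gene took a Benjamini-Hochberg p below 0.05 together with a log2 difference of 1 or more in size. The glands differed in 131 genes (1.19% of those tested): 22 were higher in parotid (0.200%) and 109 were higher in submandibular gland (0.993%). BPIFA2 is 1 of the 109 and is given no test here. Of all tested genes, 1946 of 10978 had the fitted direction in each of the 3 animals with both glands. Among the called genes these were 21 of 22 higher in parotid and 106 of the 108 others higher in submandibular gland, a description, since the same libraries made the calls. The libraries of the glands did not overlap in 260 genes (2.37%), 104 of them higher in parotid (0.947%) and 156 higher in submandibular gland (1.42%). The median log2 difference of all tested genes was 0.05.

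The count depended on how animals were treated. Without the animal as a block 14 genes were called, and with the 3 complete pairs alone and animal as a fixed term 204 were. That fixed-block fit left 2 residual degrees of freedom, and limma took each gene's variance from the trend with mean level. Its calls, here and below, therefore do not weigh a gene's own spread between animals. The share of calls higher in parotid was 16.8%, and it was 31.5% with scaling that left out the 10 highest genes of each gland, 28.6% without the block or without the parotid library of baboon 1, and 48.4% (30 against 32) without the parotid library of baboon 4. The number called fell to 49 without the parotid library of baboon 1, 62 without that of baboon 4, 64 without the submandibular library of baboon 1 and 17 without that of baboon 4, and it rose to 322 without that of baboon 3. Of the calls, 16 remained in each of the 7 fits without 1 library: MUC7, MUC19, ST6GALNAC1, PIP, ZG16B, SCGB2A2, TLX1, KLHL14, LOC101004235, LOC101017903, LOC101019773, LOC101021528, LOC101022236, LOC101023064, LOC116268615 and LOC116270687. Every other called gene given here with its values lost its call without the submandibular library of baboon 4 and without the animal block, apart from HTN1, which lost it without the parotid library of baboon 3. Without that submandibular library the correlation within animals was estimated at -0.258, against 0.547 over all 7 libraries.

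**Figure D2:**
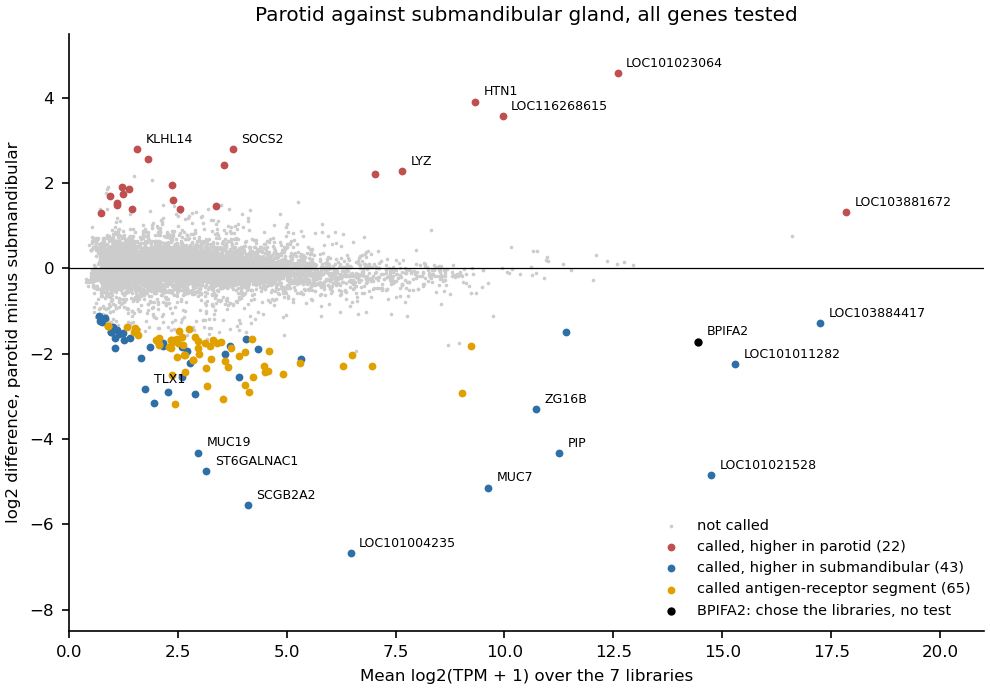
Each point is 1 of the 10978 tested genes, with its mean log2(TPM + 1) over the 7 libraries on the horizontal axis and the fitted log2 difference, parotid minus submandibular, on the vertical axis. Red points are the 22 genes called higher in parotid, blue and yellow points are called higher in submandibular gland (yellow for 65 antigen-receptor segments), grey points were not called, and BPIFA2 is black because it chose the libraries.

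A pair of mucin genes and an enzyme that modifies mucin sugars were called higher in submandibular gland. MUC7, the small soluble salivary mucin that binds bacteria, measured 9327, 1967, 3145 and 2789.8 TPM in the submandibular libraries and 106, 141 and 77.6 TPM in the parotid libraries. The lowest submandibular library, that of baboon 3, was still far above every parotid library, and the log2 difference was -5.14 (SE 0.41, limma adjusted p = 6.57e-09). MUC19, a large gel-forming mucin, measured 59.8, 12.8, 27.6 and 24.5 TPM in submandibular gland and 0.318, 0.308 and 0.679 TPM in parotid. Its log2 difference was -4.32 (SE 0.40, limma adjusted p = 8.66e-08), again with no overlap. In bulk tissue, fewer cells of a type and less RNA per cell cannot be told apart, here and for every gene below.

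ST6GALNAC1, which adds sialic acid to the first sugar of mucin O-glycans, followed the same order. It stood at 60.7, 21.5, 36.6 and 32.3 TPM in submandibular gland and at 0.395, 0.534 and 0.206 TPM in parotid, with a log2 difference of -4.75 (SE 0.38, limma adjusted p = 6.57e-09). For MUC7, MUC19 and ST6GALNAC1 baboon 1 had the highest submandibular value and baboon 3 the lowest. MUC7, MUC19, ST6GALNAC1 and TLX1 were the 4 genes called in each of the 17 alternatives fitted.

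MUC7, MUC19 and ST6GALNAC1 were the 3 called members of the list of mucins and mucin glycosylation, of whose 37 genes 34 were in the table and 21 were tested. Over all tested genes, 0.993% were called higher in submandibular gland and 0.200% higher in parotid. None of the list was called higher in parotid, and the median of the 21 log2 differences was -0.21, against 0.05 for all genes. B4GALNT3, a glycosyltransferase of the list, pointed the other way, with 12.3, 17.1 and 9.52 TPM in parotid and 6.73, 4.25, 4.71 and 3.34 TPM in submandibular gland. Its libraries did not overlap, but the log2 difference of 1.20 (SE 0.36, limma adjusted p = 0.163) did not pass. MUC5B, the main gel-forming mucin of human saliva, was below the filter in both glands, at no more than 0.258 TPM in any of the 7 libraries.

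Several small secreted proteins were higher in submandibular gland as well. PIP, a prolactin-induced protein that binds immunoglobulin and bacteria, measured 9673, 7894, 11136 and 6822 TPM in submandibular gland and 271, 651 and 519 TPM in parotid. ZG16B, a lectin-like secretory protein, measured 4554, 5558, 3169.8 and 5363 TPM against 435, 583 and 357 TPM. Neither gene overlapped between the glands, and the log2 differences were -4.34 for PIP (SE 0.34, limma adjusted p = 6.57e-09) and -3.30 for ZG16B (SE 0.33, limma adjusted p = 4.68e-07).

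SCGB2A2, a secretoglobin also known as mammaglobin, was near 0 in parotid, at 0.970, 1.57 and 0.0989 TPM. In submandibular gland it measured 346, 6.01, 172 and 195 TPM, so the library of baboon 3 was far below the other submandibular libraries while still above every parotid library. That library was also below the highest pancreas or liver library for this gene. The log2 difference was -5.56 (SE 0.70, limma adjusted p = 1.97e-05), and it lost the call under TMM scaling (adjusted p = 0.0565). LOC101018271 and LOC101017903, which both lie between INCENP and SCGB2A2, differed in the same direction, by -3.16 (SE 0.54) and -2.94 (SE 0.43). Their submandibular libraries spanned 2.15 to 46.6 TPM and 7.70 to 32.0 TPM, and their highest parotid libraries held 0.706 and 3.11 TPM. If these neighbours share sequence with SCGB2A2, the split of reads among them is uncertain.

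The largest log2 difference of any named gene belonged to LOC101004235, which lies between BPIFA2 and BPIFA3. It measured 1750.1, 124, 835 and 1085 TPM in submandibular gland and 8.43, 9.60 and 1.13 TPM in parotid. The log2 difference was -6.68 (SE 0.59, limma adjusted p = 3.85e-08), with -7.54, -3.56 and -8.62 in baboons 1, 3 and 4. Because it neighbours the gene that chose the libraries, and may share reads with it, its difference is not independent of that choice.

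For 7 of these genes the parotid level was no higher than in tissues that make no saliva. The highest pancreas or liver library held 485 TPM of MUC7, 1092 TPM of PIP, 1813 TPM of ZG16B, 12.4 TPM of SCGB2A2, 1.90 TPM of ST6GALNAC1, 1.82 TPM of MUC19 and 41.8 TPM of LOC101004235. Every parotid library was below those values. For SCGB2A2, so was the submandibular library of baboon 3. Whether part of the low values came from other libraries was not tested, so the parotid levels are given as measured.

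**Figure D3:**
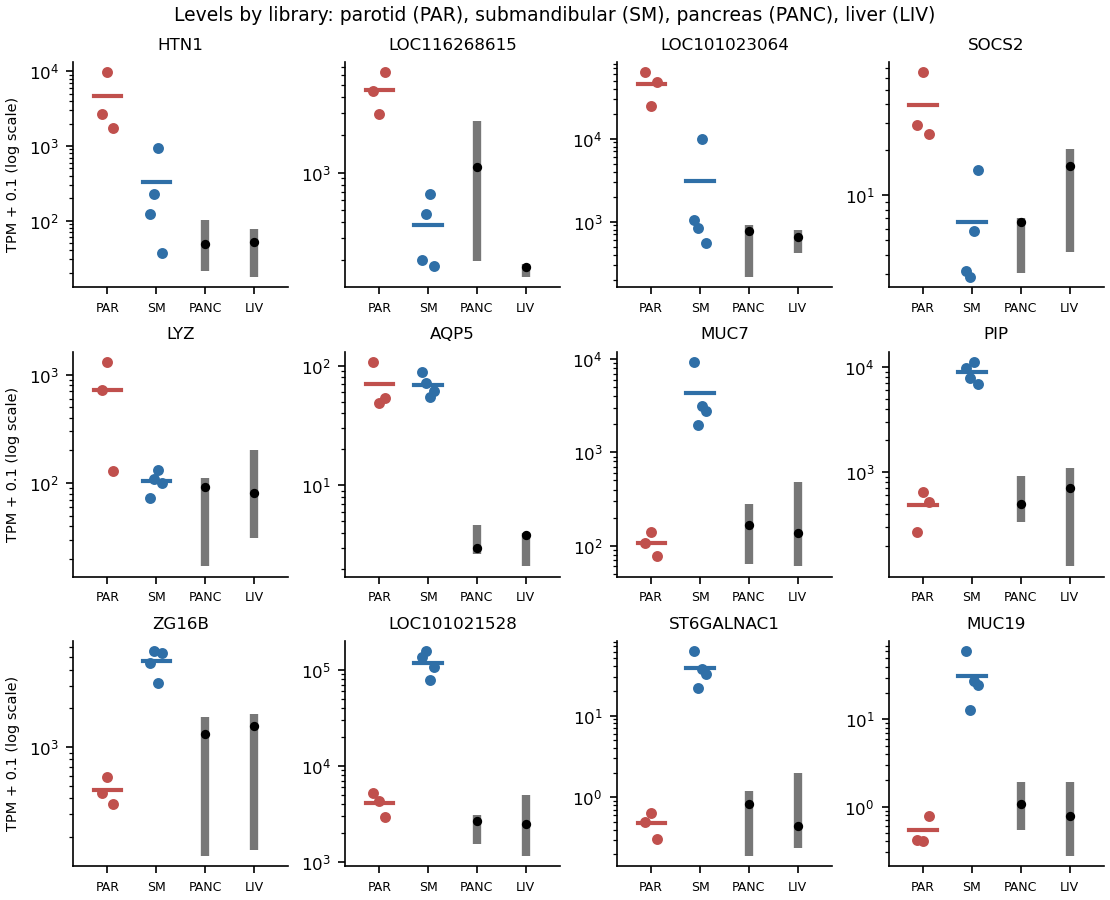
Points are single parotid (red, 3) and submandibular (blue, 4) libraries on a log axis of TPM + 0.1, horizontal lines are group means, and grey bars with black dots give the range and median of the 5 pancreas and 5 liver libraries. HTN1, LOC116268615, LOC101023064 and SOCS2 lie higher in parotid without overlap, LYZ overlaps through 1 parotid library at 128 TPM, AQP5 overlaps, and the 6 genes from MUC7 to MUC19 lie higher in submandibular gland without overlap.

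On the parotid side, the named gene with the largest difference was LOC101023064, a protein-coding locus that the annotation does not place on a chromosome. It measured 62498, 24915 and 47553 TPM in parotid and 1032, 839, 9964 and 555 TPM in submandibular gland. The submandibular library of baboon 4 was about an order of magnitude above the other submandibular libraries and still below every parotid library. The log2 difference was 4.57 (SE 0.49, limma adjusted p = 1.44e-06), ranging from 2.25 in baboon 4 to 5.92 in baboon 1. The call was lost under TMM scaling (adjusted p = 0.0735).

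HTN1, histatin 1, a histidine-rich peptide with antifungal and wound-healing activity, was the named salivary protein with the largest difference toward parotid. It stood at 2690.1, 9686 and 1738 TPM in parotid and at 124, 227, 947 and 36.2 TPM in submandibular gland. Baboon 3 had the highest parotid value and baboon 4 the highest submandibular value, so the log2 differences within animals were 4.43, 5.41 and 0.87. The fit gave 3.91 (SE 0.59, limma adjusted p = 3.25e-04), the call ended under TMM scaling (adjusted p = 0.147), and the value was 2.97 without the parotid library of baboon 3.

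LYZ, lysozyme, which cleaves bacterial cell walls, was called higher in parotid although its libraries overlapped. It measured 729, 1311 and 128 TPM in parotid and 73.4, 109, 133 and 100.1 TPM in submandibular gland, and the parotid of baboon 4 fell within the submandibular range. The log2 difference was 2.28 (SE 0.50, limma adjusted p = 0.0151), with 3.29, 3.58 and -0.05 within animals. It was called in 6 of 17 alternatives, and the call was also lost without the parotid library of baboon 1 (1.88) or 3 (1.61) or the submandibular library of baboon 1 (2.02).

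The list of salivary secretory proteins thus split between the glands. Of its 45 genes, 30 were in the table and 27 passed the filter, and BPIFA2 is left out of what follows. Of the other 26, HTN1 and LYZ were called higher in parotid, and PIP, ZG16B, MUC7, SCGB2A2, CA6 and BPIFB2 were called higher in submandibular gland. Among all tested genes the shares called were 0.200% higher in parotid and 0.993% higher in submandibular gland. The median log2 difference over the 26 was -0.49. CA6, the secreted carbonic anhydrase of saliva, measured 1455, 973 and 2181 TPM in parotid and 6577, 2566, 3571 and 5765 TPM in submandibular gland, without overlap (log2 difference -1.49, SE 0.35, limma adjusted p = 0.0254). LPO, the salivary peroxidase, did not pass, with 129.9, 148 and 100.2 TPM in parotid and 107, 77.4, 85.3 and 36.4 TPM in submandibular gland. AZGP1, zinc-alpha-2-glycoprotein, overlapped too, at 239 to 318 TPM in parotid and 225 to 370.2 TPM in submandibular gland. DMBT1, a bacteria-binding scavenger receptor protein of saliva, stood at 12.7, 11.8 and 4.02 TPM in parotid against 2.26 to 3.22 TPM in submandibular gland. Its libraries did not overlap, but its log2 difference of 1.36 did not pass (SE 0.37, limma adjusted p = 0.0792). DMBT1 was called higher in parotid with animal as a fixed block over the 3 pairs and with scaling that left out the 10 highest genes of each gland.

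Amylase, the starch-digesting enzyme that the series was set up to follow, was higher in parotid. The 4 genes that lie between RNPC3 and PRMT6 were summed, because amylase copies are close in sequence and share reads. The sum was 4752, 3365 and 6849.9 TPM in parotid (mean 4989 ± 1755, SD, n = 3) and 386, 603, 793 and 280.1 TPM in submandibular gland (mean 515 ± 229, SD, n = 4), a 9.68-fold ratio of means with no overlap. The log2 difference of 3.32 gave p = 0.0571 in a two-sided exact permutation test over the 7 libraries, the smallest p that 3 against 4 libraries allow. Within animals the differences were 3.62, 2.48 and 3.11 in baboons 1, 3 and 4, and a two-sided exact sign-flip test gave p = 0.25, the smallest that 3 animals allow. The same sum was 364 to 672 TPM in liver (median 406) and 289 to 782 TPM in sublingual gland. The submandibular sums overlapped both ranges, so they did not stand above liver as a group.

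By the kallisto values, a single copy carried most of that sum. Because the copies share reads, the split of the sum among them is uncertain. LOC116268615 made up 94.8%, 86.3% and 91.7% of the amylase sum in parotid and 52.4%, 78.1%, 84.8% and 64.5% in submandibular gland. Its own level was 4505, 2905 and 6282 TPM in parotid and 202, 471, 672 and 181 TPM in submandibular gland, a log2 difference of 3.57 (SE 0.39, limma adjusted p = 2.25e-06). LOC101018739, the copy that led in pancreas with up to 7784 TPM, measured 203, 337 and 517 TPM in parotid and 38.8 to 83.5 TPM in submandibular gland (log2 difference 2.21, SE 0.40, limma adjusted p = 0.00232). Under TMM scaling both calls ended, at adjusted p of 0.0593 and 0.147. The submandibular values of LOC101018739 lay below the highest liver library, at 149.9 TPM.

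**Figure D4:**
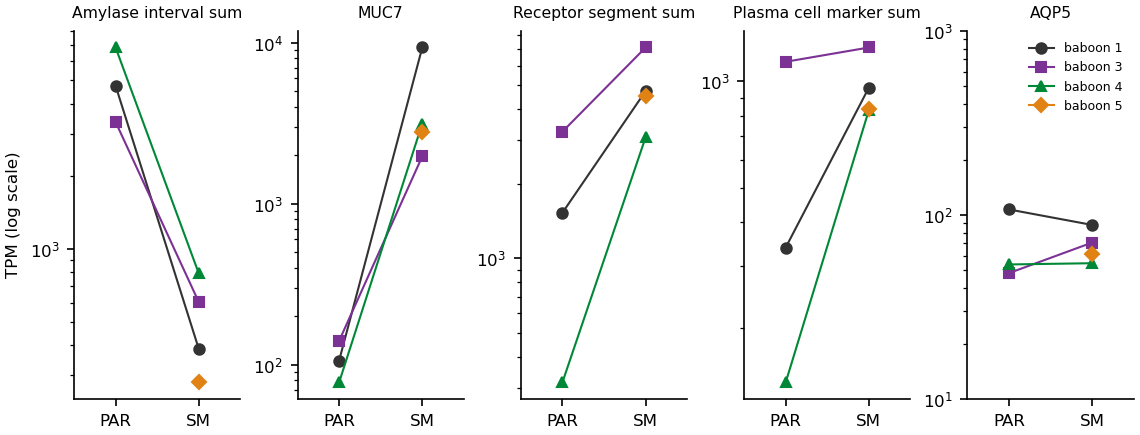
Each panel joins the parotid (PAR) and submandibular (SM) library of an animal, in TPM on a log axis whose range differs between panels. Baboon 5 has only a submandibular point. In the 3 animals with both glands the amylase sum falls and MUC7 and the antigen-receptor segment sum rise from parotid to submandibular gland, the plasma cell marker sum rises little in baboon 3 (1136 to 1247 TPM), and AQP5 shows no common direction.

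Other genes higher in parotid were expressed at lower levels. SOCS2, a suppressor of cytokine and growth hormone signalling, measured 28.9, 65.0 and 25.4 TPM in parotid and 3.06, 2.77, 5.66 and 14.7 TPM in submandibular gland (log2 difference 2.80, SE 0.43, limma adjusted p = 3.26e-04). ADAM11, a metalloprotease-like membrane protein without protease activity, measured 13.3, 12.2 and 6.86 TPM against 0.839 to 2.98 TPM (log2 difference 1.95, SE 0.35, limma adjusted p = 0.00238). TMEM132A, a transmembrane protein, was close to the threshold at 1.47 (SE 0.37, limma adjusted p = 0.0473). None of the 3 overlapped between the glands.

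Among loci without a symbol, LOC101008803, which lies among MS4A genes, measured 5.36, 5.14 and 22.4 TPM in parotid and at most 1.23 TPM in submandibular gland (log2 difference 2.56, SE 0.39). LOC101006341, between KLRB1 and DDX11, measured 36.1, 65.4 and 10.3 TPM in parotid and at most 6.33 TPM in submandibular gland (log2 difference 2.42, SE 0.43). The highest libraries of pancreas and liver held 21.6 and 25.7 TPM of LOC101006341, above the parotid of baboon 4. Only 10 called genes met the rule for naming on the parotid side, so 2 genes that failed the test follow by size. MYL4, a myosin light chain of atrial and embryonic muscle, rested on the parotid of baboon 1 at 34.1 TPM, with 0.220 and 0.111 TPM in the other parotid libraries. That library also held the highest sum of skeletal muscle markers, 693 TPM against 38.4 to 465 TPM in the other 6, and the part of muscle in its MYL4 value was not tested. LOC101026125, within a keratin gene cluster between KRT7 and KRT84, gave 1.48 (SE 0.38, limma adjusted p = 0.0527).

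Ion and fluid transport differed in a few genes. CFTR, the chloride and bicarbonate channel of duct cells, measured 5.32, 2.05, 4.31 and 1.05 TPM in submandibular gland and 0.130, 0.841 and 0.115 TPM in parotid (log2 difference -1.69, SE 0.35, limma adjusted p = 0.0104). CA2, the cytosolic carbonic anhydrase that supplies bicarbonate, measured 47.1, 15.0, 29.8 and 20.8 TPM against 13.3, 5.97 and 5.91 TPM (log2 difference -1.66, SE 0.39, limma adjusted p = 0.0252). Neither gene overlapped between the glands. With CA6 these were the 3 called members among 25 tested of the 34 listed genes of fluid and ion secretion, all higher in submandibular gland. The share called in that direction over all tested genes was 0.993%. The list's median was -0.24. CFTR, CA2 and CA6 were called in 6 of 16, 7 of 17 and 6 of 17 alternatives. FXYD2, a regulatory subunit of the sodium pump, varied by animal and by gland, at 64.2, 1103 and 149 TPM in parotid and 402, 2619.6, 565 and 351 TPM in submandibular gland. Baboon 3 was highest in both glands, and the log2 difference of -1.79 did not pass (SE 0.49, limma adjusted p = 0.0796). Within each animal with both glands the submandibular value was higher. FXYD2 was called higher in submandibular gland with animal as a fixed block over the 3 pairs and without both libraries of baboon 3.

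Receptors that drive secretion showed 2 calls, both toward submandibular gland and both at low levels. CHRM1, the M1 muscarinic acetylcholine receptor, measured 6.27, 1.30, 1.72 and 3.30 TPM in submandibular gland and 0.665, 0.106 and 0.125 TPM in parotid (log2 difference -1.52, SE 0.33, limma adjusted p = 0.0142). VIPR2, a receptor for vasoactive intestinal peptide, measured 2.16, 2.55, 0.896 and 3.60 TPM against 0.244, 0.151 and 0.0240 TPM (log2 difference -1.37, SE 0.31, limma adjusted p = 0.0181). Of the 18 listed receptors 10 were tested, with a median of -0.21, and 0.993% of all tested genes were called higher in submandibular gland. P2RX4, an ATP-gated cation channel, was higher in every parotid library, at 13.3, 14.9 and 12.8 TPM against 4.37 to 8.33 TPM, but did not pass (log2 difference 1.13, SE 0.36, limma adjusted p = 0.242).

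Of 57 listed gland transcription factors, 38 were tested, and none was called higher in parotid, where 0.200% of all tested genes were. A count of 0 is near that background. The list's median was 0.15. PAX9, a paired-box factor of pharyngeal and oral development, was higher in each parotid library, at 25.3, 38.0 and 31.7 TPM against 13.4, 12.4, 11.4 and 6.50 TPM, but its log2 difference of 1.37 did not pass (SE 0.37, limma adjusted p = 0.0796). FOXA1, a factor of endoderm-derived epithelia, pointed toward submandibular gland without passing, at -1.23 (SE 0.32, limma adjusted p = 0.0603). With animal as a fixed block over the 3 pairs, PAX9 was called higher in parotid and FOXA1 higher in submandibular gland. BHLHA15, also called MIST1, which maintains secretory cell architecture, overlapped at 37.2 to 82.3 TPM in parotid and 25.6 to 55.8 TPM in submandibular gland.

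Outside the lists, a homeobox gene was called in each of the 17 alternatives, and it was picked out after its values were seen. TLX1 measured 7.54, 7.71, 6.04 and 6.01 TPM in submandibular gland and 0.111, 0.122 and 0.103 TPM in parotid (log2 difference -2.83, SE 0.32, limma adjusted p = 3.77e-06). KLHL14, an adaptor of ubiquitin ligases, was picked the same way on the parotid side. It measured 8.19, 16.2 and 3.72 TPM in parotid and 0.305, 0.455, 0.188 and 0.201 TPM in submandibular gland (log2 difference 2.80, SE 0.35, limma adjusted p = 1.91e-05).

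A further 4 called genes of low level were picked after their values were seen. ABCC1, an export pump for conjugated compounds, measured 3.80, 5.19 and 2.36 TPM in parotid and 0.253 to 0.870 TPM in submandibular gland (log2 difference 1.75, SE 0.31). MELTF, melanotransferrin, measured 2.42, 5.10 and 4.72 TPM in parotid and 0.222 to 0.427 TPM in submandibular gland (log2 difference 1.90, SE 0.31). Toward submandibular gland, IL19, a cytokine of the interleukin 10 family, measured 12.2, 16.4, 8.21 and 11.4 TPM against 0.301, 3.65 and 0.768 TPM (log2 difference -2.54, SE 0.38). CAPN9, a calpain protease known from the stomach, measured 3.96, 2.20, 2.59 and 1.98 TPM against at most 0.0217 TPM (log2 difference -1.88, SE 0.30). None of the 4 overlapped between the glands.

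Genes of the endoplasmic reticulum and secretory machinery had log2 differences from -0.48 to 0.62 over 39 tested members, with a median of 0.03. The 22 tested ductal genes ranged from -1.15 to 1.40, with a median of -0.08. Neither list held a call in the fit of all 7 libraries, where 1.19% of all tested genes were called, so counts of 0 in lists of these sizes are near the background. With animal as a fixed block over the 3 pairs, the ductal genes KLK1, HSD11B2 and SLC13A2 were called, 1 of them higher in parotid and 2 higher in submandibular gland. KLK1, tissue kallikrein of striated ducts, measured 266, 2113 and 359 TPM in parotid and 1028, 2792, 1020.2 and 535 TPM in submandibular gland, highest in baboon 3 in both. At 3 and 4 libraries a missed threshold does not show that these genes were alike.

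**Figure D5:**
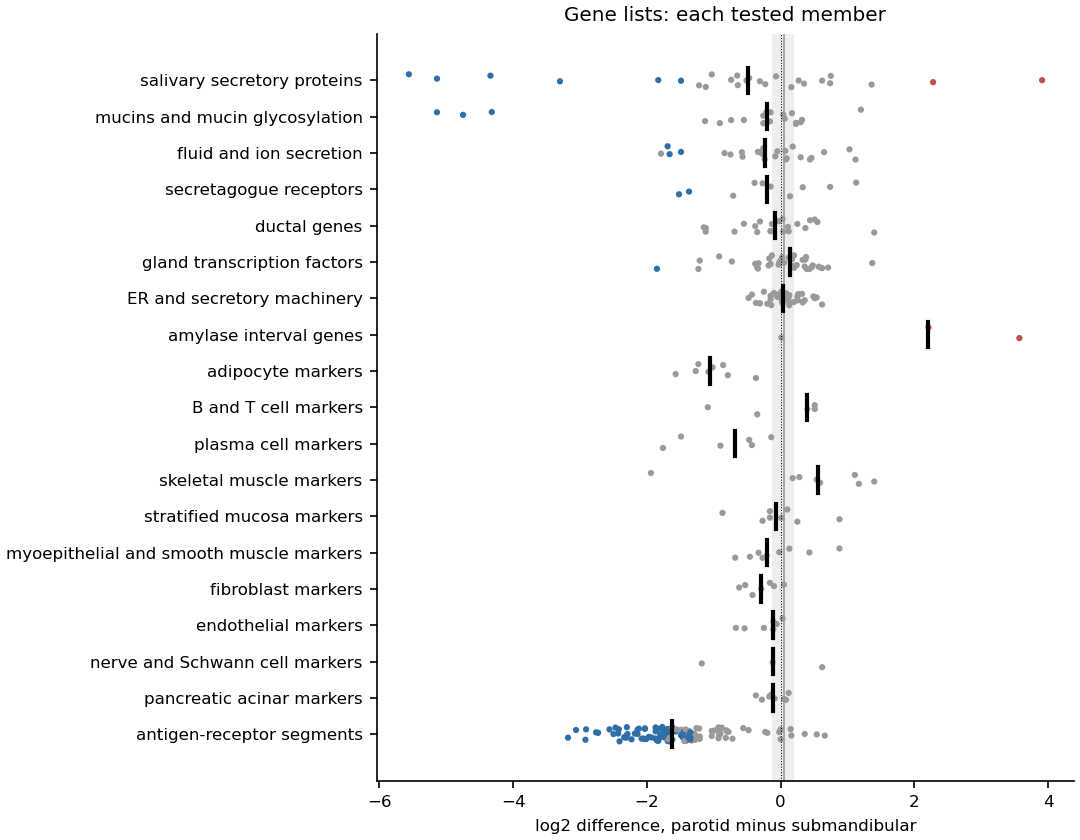
Each point is a tested member of a gene list at its log2 difference, parotid minus submandibular (red called higher in parotid, blue called higher in submandibular gland, grey not called). Black bars are list medians, and the grey band and line are the middle 50 percent and the median of all tested genes. The lists run from the salivary secretory proteins at the top through markers of other cell types to the antigen-receptor segments, whose median is -1.62 with 65 of 116 called. BPIFA2 is left out.

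Antigen-receptor gene segments were 65 of the 109 genes called higher in submandibular gland, a count that varied widely between fits. RefSeq marks 212 genes of the table as variable segments or constant regions, and this set was chosen after the values were seen. Of the 116 tested, 65 (56.0%) were called higher in submandibular gland and none in parotid, against 44 of the 10862 other genes (0.405%). The median log2 difference over the 116 was -1.62. The 65 were 59.6% of all genes called in that direction. No segment was called without the animal block, without a filter on low values or with all 10 gland libraries. Under TMM scaling 38 were called, and with scaling that left out the 10 highest genes of each gland 29 of 61 were segments. Leaving out a parotid library gave 16 segments without baboon 1 and 8 of 32 without baboon 4. Leaving out a submandibular library gave 28 without baboon 1, 99 without baboon 3 and 3 of 13 without baboon 4. The median over the tested segments lay between -2.08 and -1.58 in the 7 alternatives for which it was computed.

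Of the 65 calls, 27 were among 44 tested segments that the annotation does not place on a chromosome. The others lay in intervals that hold immunoglobulin genes. In the interval before TMEM121, where the heavy chain genes lie, 14 of 23 tested segments were called, and 22 had a negative log2 difference. LOC101024463, an abundant constant region of that interval, had a log2 difference of 0. It measured 358, 363 and 65.8 TPM in parotid and 84.4, 208, 435 and 272 TPM in submandibular gland. Between RPIA and PAX8, around the kappa light chain genes, 15 of 32 were called, and around BCR, TOP3B and the ZNF280 genes, where the lambda light chain genes lie, 9 of 12 were. None of the 5 tested segments in T cell receptor intervals was called, and their median was 0.16. They lay between EPHB6 and PRSS58 or between DAD1 and SALL2, and no segment between STARD3NL and AMPH was tested. Segments share sequence, 7 of the 65 had values identical to another, and reads cannot be assigned firmly to single segments.

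Summed over the 212 genes, the segments reached 1528, 3251 and 315 TPM in parotid and 4744, 7119, 3083 and 4547 TPM in submandibular gland. The parotid of baboon 3 exceeded the submandibular gland of baboon 4, so the sums overlapped, while within each animal the submandibular sum was higher. LOC101020105 and LOC101026581 were the 2 segments that the rule named, with log2 differences of -3.18 (SE 0.43) and -3.06 (SE 0.44). LOC101020105 was listed at 0 in the parotid of baboons 1 and 4 and stood at 3.76 TPM in that of baboon 3, against 4.09 to 21.6 TPM in submandibular gland.

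Plasma cell markers moved in the same direction without reaching a call in the fit of all 7 libraries, where 0.993% of all tested genes were called higher in submandibular gland. Their sum was 339, 1136 and 141 TPM in parotid and 959.9, 1247, 829 and 834 TPM in submandibular gland, and 0 of the 6 tested of 8 were called, with a median of -0.69. JCHAIN, the joining chain of secreted immunoglobulin A and M, measured 252, 1029.8 and 60.3 TPM in parotid and 835, 1100.1, 718 and 740.4 TPM in submandibular gland. Its log2 difference of -1.76 did not pass (SE 0.49, limma adjusted p = 0.0815), and the parotid of baboon 3 lay within the submandibular range. JCHAIN and MZB1, another marker of the list, were called higher in submandibular gland in other fits. These were the fit with animal as a fixed block over the 3 pairs and the fit without both libraries of baboon 3. PIGR, the receptor that carries immunoglobulin across the epithelium, was called and did not overlap, at 54.7, 10.5, 13.2 and 24.9 TPM in submandibular gland and 4.65, 6.62 and 2.46 TPM in parotid (log2 difference -2.01, SE 0.43, limma adjusted p = 0.0123). It was picked out after its values were seen. The part of plasma cell number in the segment values was not tested.

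Markers of other cell types gave no call in the fit of all 7 libraries, where 1.19% of all tested genes were called. Counts of 0 in lists of these sizes are near that background. The 8 adipocyte markers had a median of -1.05, which was -0.32 without the submandibular library of baboon 5. Skeletal muscle markers had a median of 0.57 over 8 tested of 10, B and T cell markers 0.40 over 5 of 10, fibroblast markers -0.29 over 7 of 8, myoepithelial and smooth muscle markers -0.21 over 9 of 10 and endothelial markers -0.11 over 7 of 8. Nerve and Schwann cell markers had a median of -0.12 over 3 of 8, stratified mucosa markers -0.07 over 8 of 10, and pancreatic acinar markers -0.12 over 8 of 8. With animal as a fixed block over the 3 pairs, 3 skeletal muscle markers were called higher in parotid and 1 higher in submandibular gland. Without both libraries of baboon 3, the B cell marker CD79A was called higher in submandibular gland. Without the library of baboon 5, MUC7, PIP, HTN1 and the LOC116268615 amylase copy stayed called, with adjusted p of 3.69e-08, 3.69e-08, 7.65e-04 and 6.79e-06, whereas LOC103881672 and LOC103884417 did not, with adjusted p of 0.0552 and 0.0656.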

How the data were processed

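The authors deposited 1 table of TPM for 21287 genes in 25 libraries, made with kallisto per the submitters' processing notes; the index, genome build and versions are not given in the sources used here. TPM keep no depth, so no counting interval is given. The libraries are separate animals within a tissue, per the labels.

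Genes that averaged 1 TPM or more in 1 of the glands were fitted as log2(TPM + 1), parotid minus submandibular, with limma 3.58.1 in R 4.3.3, with animal as a random block (consensus correlation 0.547) and a mean trend, and p-values were adjusted by Benjamini-Hochberg over all genes tested. A log2 difference on this scale understates the change of low genes. Same-numbered libraries come from the same animal, per the labels; deviations from the gland means correlated at 0.232, 0.473 and 0.363 within the 3 animals.

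Genes were named by rule: the 12 highest and 12 lowest log2 differences among called genes with at least 10 TPM in the higher gland, no overlap and 1 direction in all 3 animals (filled with uncalled genes where fewer), list members, and the 10 most abundant genes of each gland. The members and lists were chosen with earlier results of these data known. Alternatives were the block, the pseudocount of 0.1, the filter, TMM, median-of-ratios and other scalings, all 10 gland libraries, and leaving out each library. One alternative, without both libraries of baboon 3, and the antigen-receptor segments were added after seeing the data. The RefSeq table gave names and neighbours for all 21287 genes and no coordinates. One result for a single gene is not reported here.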

Additional observations from a re-analysis of the deposited data

Results flagged for a closer look

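In the 4 submandibular libraries, 6 of the 42 quantities examined had 1 library whose gap to its neighbour passed Dixon's 95% critical value for 4 samples (chance flags about 1 quantity in 20, and the quantities are not independent). For LOC101023064 the library of baboon 4 stood at 9964 TPM, and for MUC7 that of baboon 1 stood at 9327 TPM. The other 4 were marker sums in the library of baboon 5: adipocyte markers at 7686 TPM, fibroblast markers at 859 TPM, endothelial markers at 128 TPM and nerve and Schwann cell markers at 617 TPM.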

How the results depend on the processing

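The count of 131 called genes was 14 with no replicate block, 204 with animal as a fixed replicate block over the 3 pairs, 6 with no filter on low values, 80 with a mean of at least 5 TPM, 87 under TMM scaling and 8 with all 5 parotid and 5 submandibular libraries. Leaving out 1 library gave 17 to 322. Of the 131, 14 were also called without the block, 129 with the fixed block and 70 under TMM. With all 10 gland libraries the log2 difference of LOC103881672 turned to -0.46. MUC21 and CRNN, which the fit of all 7 libraries did not call, ranged with 1 library left out from -1.27 to 1.43 and from -1.58 to 1.37, with the lowest values without the submandibular library of baboon 3. Over the named genes and alternatives, 4392 values stayed on their side of the threshold, 420 lost the call, 89 gained it and 3 reversed, and the cause was not tested. The values that stayed include genes that the fit of all 7 libraries did not call, so that total does not measure how many calls were kept. Of the 131 calls, 17 were kept without the submandibular library of baboon 4, and 4 were kept in every alternative. The amylase difference kept its direction in its 13 alternatives, from 1.62 with all 10 libraries to 3.60. The depth is unknown, and 3 against 4 libraries limit the precision.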
